A study of Mus musculus with 8 samples.

Results

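The genes described here are the mouse linker and core histone genes whose symbols follow the H1f, H2ac, H2bc, H3c and H4c numbering, measured by total RNA sequencing in 4 organs. All rows of the deposited expression table with such a symbol were taken, which gave 69 of 27179 genes: 11 H1, 17 H2A, 17 H2B, 12 H3 and 12 H4 genes. Mouse brain, heart, kidney and liver were each kept in 2 ways. FFPE tissue is formalin-fixed, paraffin-embedded tissue, the form kept in pathology archives, and frozen tissue had been flash frozen. Each of the 8 groups (FFPE brain, heart, kidney and liver, and frozen brain, heart, kidney and liver) holds 1 library. RNA of both kinds was isolated with Trizol and sheared in a PIXUL sonicator, and FFPE tissue was deparaffinised first. Strain, age, genotype, the number of animals and any pooling are not given in the labels, so the p-values below measure only the spread between these libraries.

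Most histone genes are replication-dependent: they lie in clusters without introns, are transcribed in S phase, and their mRNAs end in a conserved stem-loop in place of a poly(A) tail. The stem-loop binding protein and the U7 small nuclear ribonucleoprotein act on that end, and the mRNA is degraded when DNA synthesis stops. In organs of mostly non-dividing cells, polyadenylated mRNA of some histone genes and replication-independent variants keep up the supply. The symbol rule also takes in H1 genes that are not replication-dependent in textbook accounts: H1f0, the linker histone of differentiated cells, H1f10, and the germ-cell genes H1f7, H1f8 and H1f9. The sources used here do not say whether poly(A) RNA was selected or ribosomal RNA removed before sequencing.

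The 3′ ends carry the mark of the group, so the stem-loops of the members that the results turn on are shown. The 16-base histone stem-loop (a perfect stem of 6 base pairs and a loop of 4 bases) was searched within 200 bases after the stop codon of each gene's GENCODE M21 transcripts. It was found in 43 of 69 genes, 21 to 58 bases after the stop codon (median 31). Of 50 genes whose transcript models run at least 60 bases past the stop codon, 41 held it. The 9 others were H1f0, H1f7, H1f8, H1f9, H1f10, H2bc4, H2bc21, H2bc23 and H2bc24. Each line gives 5 bases, the stem-loop in capitals and 5 bases, 5′ to 3′:
H1f2: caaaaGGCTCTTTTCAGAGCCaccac
H1f4: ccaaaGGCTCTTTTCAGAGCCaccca
H1f3: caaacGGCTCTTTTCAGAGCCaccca
H3c14: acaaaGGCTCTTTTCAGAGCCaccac
H2ac20: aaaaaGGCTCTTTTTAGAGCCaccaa
H4c3: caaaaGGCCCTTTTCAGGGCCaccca
H4c4: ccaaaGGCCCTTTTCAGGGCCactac
H4c8: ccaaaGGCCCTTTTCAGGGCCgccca
H4c14: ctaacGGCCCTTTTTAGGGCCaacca

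The form of H1f2, H1f4, H1f3 and H3c14 was the commonest. It was held by 24 genes of the H1, H2A, H2B and H3 classes and by no H4 gene in this search. The form of H4c3, H4c4 and H4c8 was held by 6 genes, all of them H4 genes. The H4c14 form was held by 2 H4 genes, and the H2ac20 form by H2ac20 alone.

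Promoters are shown for H1f2, H1f4, H1f0 and H4c8, which were called lower in FFPE tissue, for H1f10 and H2bc18, whose levels were higher in brain, and for H2ac6, which shares its promoter with H2bc4. RefSeq promoters of GRCm38.p6 were matched for 64 of 69 members, and the 250 bases before each start were searched on both strands for 4 known elements of histone promoters. The TATA box, an element near the start site of many genes, was searched as TATAAA in each of these windows. The element bound by nuclear factor Y was searched by its 5 letters CCAAT in the same way. The octamer of H2B genes was searched as ATTTGCAT, and the H1 box, an element described in H1 gene promoters, was searched as AAACACA. None of these words contains another. Capitals mark the matches, and the sequence runs 5′ to 3′ on the strand of the gene. The windows are chr13:23738557-23738806 (+ strand) for H1f2, chr13:23622559-23622808 (- strand) for H1f4, chr15:79027962-79028211 (+ strand) for H1f0, chr6:87981483-87981732 (- strand) for H1f10, chr13:23683960-23684209 (- strand) for H2ac6, chr3:96269450-96269699 (+ strand) for H2bc18 and chr13:23530794-23531043 (+ strand) for H4c8:
H1f2: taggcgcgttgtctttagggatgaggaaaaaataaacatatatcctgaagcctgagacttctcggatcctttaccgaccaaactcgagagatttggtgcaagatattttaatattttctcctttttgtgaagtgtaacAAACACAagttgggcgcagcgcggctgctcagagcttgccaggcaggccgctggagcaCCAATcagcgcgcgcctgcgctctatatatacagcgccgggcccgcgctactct
H1f4: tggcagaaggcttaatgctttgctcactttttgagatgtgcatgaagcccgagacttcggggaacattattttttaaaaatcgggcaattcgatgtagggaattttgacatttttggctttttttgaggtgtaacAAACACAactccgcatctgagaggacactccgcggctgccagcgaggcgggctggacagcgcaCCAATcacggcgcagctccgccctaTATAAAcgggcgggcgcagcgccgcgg
H1f0: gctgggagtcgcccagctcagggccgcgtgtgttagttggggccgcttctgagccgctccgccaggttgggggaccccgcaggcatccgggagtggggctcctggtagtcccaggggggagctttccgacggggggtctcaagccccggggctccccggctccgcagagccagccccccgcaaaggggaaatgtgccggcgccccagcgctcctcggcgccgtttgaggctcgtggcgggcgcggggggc
H1f10: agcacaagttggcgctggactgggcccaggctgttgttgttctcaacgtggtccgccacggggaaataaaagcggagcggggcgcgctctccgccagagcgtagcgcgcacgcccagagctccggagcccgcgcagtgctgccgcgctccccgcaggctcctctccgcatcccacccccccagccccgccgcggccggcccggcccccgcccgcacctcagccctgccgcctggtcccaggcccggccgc
H2ac6: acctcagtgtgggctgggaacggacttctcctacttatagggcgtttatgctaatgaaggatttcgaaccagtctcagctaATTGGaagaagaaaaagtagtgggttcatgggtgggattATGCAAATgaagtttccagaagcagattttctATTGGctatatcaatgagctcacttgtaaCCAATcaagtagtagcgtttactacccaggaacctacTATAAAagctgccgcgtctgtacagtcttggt
H2bc18: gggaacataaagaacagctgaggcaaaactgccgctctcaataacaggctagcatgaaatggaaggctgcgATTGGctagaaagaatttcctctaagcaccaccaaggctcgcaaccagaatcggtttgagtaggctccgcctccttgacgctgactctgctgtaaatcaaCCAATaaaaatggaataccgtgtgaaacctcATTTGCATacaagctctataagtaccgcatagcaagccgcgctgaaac
H4c8: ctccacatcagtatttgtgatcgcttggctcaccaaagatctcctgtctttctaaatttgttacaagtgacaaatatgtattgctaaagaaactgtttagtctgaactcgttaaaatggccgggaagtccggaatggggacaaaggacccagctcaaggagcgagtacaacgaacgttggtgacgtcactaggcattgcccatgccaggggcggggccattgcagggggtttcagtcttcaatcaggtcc

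The H2ac6 window spans the gap to H2bc4, which starts 240 bases away on the other strand. H1f2 and H1f4 held an H1 box followed by the nuclear factor Y element, and the windows of H1f0, H1f10 and H4c8 held none of the 4 words. The nuclear factor Y element was present in 17 of 17 H2A, 15 of 15 H2B, 8 of 11 H1, 8 of 10 H3 and 3 of 11 H4 promoters, against 33.8% of 32851 RefSeq promoters. The octamer, known from H2B promoters, was present in 6 of 17 H2A and 7 of 15 H2B promoters and in none of the others, against 1.60% of all promoters. The H1 box was present in 5 of 11 H1, 2 of 17 H2A and 2 of 15 H2B promoters and in none of the others, against 6.25% of all promoters. The TATA box was present in 28 of 64 member promoters, against 12.4% of all. The H2A and H2B counts are not separate, since 12 pairs of these genes start 164 to 281 bases apart on opposite strands. Their windows overlap, and the same match can count in both classes.

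The libraries held 10180972 to 20526813 reads. Deposited values are log2 counts per 1e+06 reads (CPM) on the authors' scaled library size, and "scaled CPM" below is a gene's reads per 1e+06 of that size. Each column could be turned back into whole reads. The scaling factors ran from 0.4998 in frozen heart to 1.76 in FFPE brain. FFPE libraries had reads for more genes than frozen ones in every organ, with 21002, 18140, 20349 and 16725 genes in FFPE brain, heart, kidney and liver, against 18722, 16098, 17129 and 15493 in the frozen libraries. Marker genes fitted the organ labels: 7 of 7 brain, 6 of 6 heart, 6 of 6 kidney and 6 of 6 liver markers were called higher in their own organ than in the others (limma). A floor of 3 reads stood for 0.119 to 0.292 scaled CPM, and reads carry no molecular identifiers, so floors and intervals cover counting error only.

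The 69 genes took 25943 reads over the 8 libraries, of which H1 genes held 51.7%, H4 genes 25.1%, H2B genes 15.7%, H3 genes 4.14% and H2A genes 3.34%. H1f0 had the most reads (5530), followed by H1f2 (4083), H1f4 (2497), H2bc4 (2444), H4c4 (1736), H4c3 (1498) and H4c8 (1376). At the low end, 13 genes had under 10 reads in all, and 4 of these, H1f8, H2ac24, H2bc22 and H2bc24, had none. The oocyte gene H1f8 and the spermatid genes H1f7 (4 reads) and H1f9 (1 read) belonged to this low group, as did the testis gene H1f6 (4 reads). Genes above 0 on the log2 CPM scale in at least 2 libraries entered the tests, which left 33 of the 69: 7 H1, 4 H2A, 6 H2B, 4 H3 and 12 H4 genes. Every H4 gene passed, and the other 36 members, led by H3c7 with 91 reads over 8 libraries, are described by their reads only. A gene can pass through the organ where it is high, as H1f10 did through its 2 brain libraries.

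Per kb of RefSeq gene span, the order of the levels changed. H1f2 led with a mean of 46.9 scaled CPM per kb over the 8 libraries (lowest 11.1, highest 80.4), followed by H4c4 at 33.9, H4c3 at 31.5, H1f4 at 26.2, H4c8 at 25.4 and H1f0 at 19.5 scaled CPM per kb. The ranges of these 6 neighbours overlap. This order depends on the length used. The longest GENCODE M21 transcripts of H1f2, H1f4 and H4c4 have 1560, 1930 and 1138 bases, against spans of 725, 782 and 402 bases. That of H1f0 has 2055 bases, against a span of 2293. The next gene, H4c14, averaged 12.9 scaled CPM per kb, and the highest H2B, H2A and H3 genes with a usable length were H2bc18 at 6.27, H2ac20 at 5.99 and H3c14 at 4.09 scaled CPM per kb. H2bc4 was left out of this order, because its RefSeq span of 8282 bases includes an intron. Many members are near copies of each other. Of the 50-base windows of the coding sequence, those also found in transcripts of other genes made up at least 50% in 52 members and 100% in 12, H3c14, H3c15, H4c17 and H4c18 among them, and 0% in 9, H1f0, H1f1, H1f5, H1f10 and H2bc21 among them. The share was 97.6% in H2bc4, and 21.9, 26.4 and 25.4% in H1f2, H1f3 and H1f4. The sources used here do not say how the authors' counting treated reads that match several copies. Values of single H2A, H2B, H3 and H4 genes, and of these H1 genes in part, are uncertain to that extent.

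The first comparison asked how FFPE tissue differed from frozen tissue of the same organ. Summed over the 69 genes, histone RNA stood lower in the FFPE library of all 4 organs, with 110.4, 128, 179 and 207 scaled CPM in FFPE brain, heart, kidney and liver, against 166, 236, 301 and 344 scaled CPM in the frozen libraries. The log2 ratio of FFPE to frozen was −0.59 in brain, −0.88 in heart, −0.75 in kidney and −0.73 in liver, with 1 library a group and so no test. As a plain share of all reads the difference was smaller but had the same direction: 0.0194% (exact 95% interval 0.0186 to 0.0203%) in FFPE brain against 0.0250% (exact 95% interval 0.0242 to 0.0257%) in frozen brain, and 0.0106% (exact 95% interval 0.0101 to 0.0112%) in FFPE heart against 0.0118% (exact 95% interval 0.0113 to 0.0123%) in frozen heart. In kidney the share was 0.0253% (exact 95% interval 0.0245 to 0.0261%) in the FFPE library against 0.0274% (exact 95% interval 0.0267 to 0.0282%) in the frozen one, and in liver 0.0192% (exact 95% interval 0.0186 to 0.0199%) in the FFPE library against 0.0261% (exact 95% interval 0.0252 to 0.0270%) in the frozen one.

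The size of the difference varied by class. H4 genes summed to 36.8, 27.4, 32.4 and 39.0 scaled CPM in FFPE brain, heart, kidney and liver, against 58.5, 68.7, 75.4 and 70.5 scaled CPM in the frozen libraries, the lowest ratio of FFPE to frozen among the 5 classes in heart, kidney and liver (log2 ratios −1.32, −1.22 and −0.85). H1 genes summed to 43.0, 70.6, 98.9 and 111 scaled CPM in FFPE brain, heart, kidney and liver, against 76.0, 114, 163 and 196 scaled CPM in the frozen libraries. On the plain share of reads, H1 kept the lower FFPE level in brain, kidney and liver but not in heart, with 0.00587% (exact 95% interval 0.00550 to 0.00626%) in the FFPE library against 0.00569% (exact 95% interval 0.00536 to 0.00602%) in the frozen one. H2B genes summed to 17.8, 18.05, 31.4 and 39.6 scaled CPM in FFPE brain, heart, kidney and liver, against 20.3, 35.1, 45.2 and 59.0 scaled CPM in the frozen libraries. H2A genes summed to 5.58, 6.14, 6.25 and 5.72 scaled CPM in FFPE brain, heart, kidney and liver, against 5.59, 10.2, 8.08 and 7.78 scaled CPM in the frozen libraries. For both H2A and H2B the plain shares were higher in the FFPE library in brain and kidney, so their direction there depends on the scaling. H3 genes summed to 7.26, 5.69, 9.79 and 11.5 scaled CPM in FFPE brain, heart, kidney and liver, against 5.99, 7.80, 8.66 and 10.3 scaled CPM in the frozen libraries, higher in FFPE in 3 of 4 organs, and on the plain share in all 4. This direction rests on 1 gene, H3c14, in kidney and liver. Without it, a sum formed after the values were seen, the other H3 genes had 5.70, 4.78, 4.62 and 4.48 scaled CPM in FFPE brain, heart, kidney and liver, against 5.12, 6.92, 6.03 and 7.58 scaled CPM in the frozen libraries, higher in FFPE tissue in brain alone, and on the plain share in brain, heart and kidney.

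**Figure D1:**
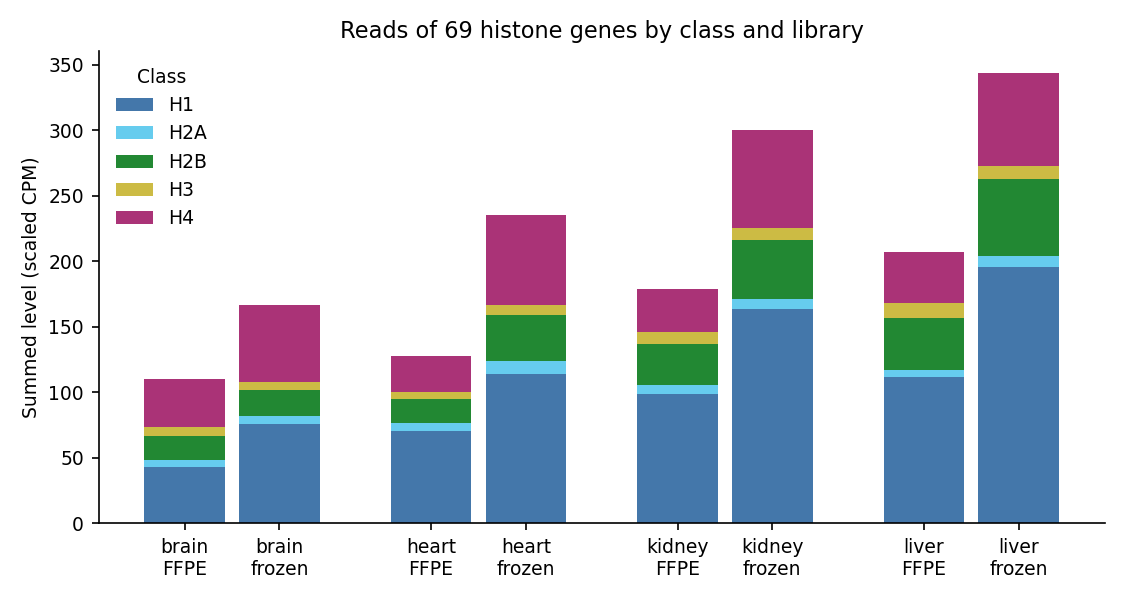
Stacked bars give the summed level of the 69 histone genes in scaled CPM (y axis) for each of 8 libraries, FFPE left of frozen within each organ, split by histone class. The FFPE bar is the shorter one in each organ, from 110 scaled CPM in FFPE brain against 166 in frozen brain to 207 in FFPE liver against 344 in frozen liver, and the H4 block shrinks most, as a ratio, in heart and kidney.

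Gene by gene, 7 of the 33 tested members fell in FFPE tissue and 0 rose (limma, Benjamini-Hochberg adjusted p under 0.05, with organ as a term). Over all 15819 genes tested, 2.18% were called lower and 1.2% higher (3.38% in all). The median log2 fold change of the 33 was −0.71, against 0.07 over all genes tested, and 27 of the 33 were below 0. By class, 3 of 7 H1 and 4 of 12 H4 genes fell, and 0 of 4 H2A, 0 of 6 H2B and 0 of 4 H3 genes were called in either direction. The class medians were −0.68 for H1, −0.91 for H4, −0.63 for H2B, −0.51 for H2A and 0.39 for H3. Of the members with a stem-loop found, 6 of 24 fell (median −0.77), and of those where none was found, 1 of 9 fell (median −0.52). That difference was not tested. Not found does not mean absent for all 9. The transcript models of H1f5, H2ac21, H2bc18 and H4c12 end at the stop codon, and that of H1f1 ends 48 bases after it. The filter itself bears on these counts, since 6 of the 33 (H1f5, H2ac4, H3c15, H4c2, H4c11 and H4c17) passed it through frozen libraries only and 1 (H3c4) through FFPE libraries only. Of the 26 members that passed through both, 6 fell, with a median of −0.70.

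Among linker histones, H1f4, H1f2 and H1f0 fell. H1f4, a main somatic H1 at chr13:23621777-23622558 (- strand) of mm10, stood at 6.65, 9.18, 16.5 and 16.6 scaled CPM in FFPE brain, heart, kidney and liver, against 15.8, 19.0, 33.1 and 47.4 scaled CPM in the frozen libraries of the same organs. Each FFPE library was below the frozen one of its organ (log2 differences −1.24, −1.05, −1.0025 and −1.51 in brain, heart, kidney and liver), although the ranges of the 2 sets overlap. The fitted change was −1.20 ± 0.14 (limma adjusted p = 0.0129). H1f2, the other abundant somatic subtype, at chr13:23738807-23739531 (+ strand), stood at 8.04, 26.6, 32.2 and 32.0 scaled CPM in the 4 FFPE libraries, against 15.7, 42.0, 57.3 and 58.3 scaled CPM in the frozen ones, in the same order of organs. On the deposited scale the 4 differences of H1f2 lay close together, from −0.96 to −0.66 (log2 fold change −0.83 ± 0.11 SE, limma adjusted p = 0.0141). H1f0, at chr15:79028212-79030504 (+ strand), stood at 20.9, 29.6, 40.8 and 55.3 scaled CPM in the 4 FFPE libraries, against 29.1, 41.8, 64.5 and 76.6 scaled CPM in the frozen ones, in the same order of organs. Its decrease on the deposited scale was the smallest of the 3 and nearly equal in the organs, at −0.48, −0.50, −0.66 and −0.47 (log2 fold change −0.53 ± 0.10 SE, limma adjusted p = 0.0380). As a plain share of reads, H1f2 and H1f0 were higher in FFPE heart than in frozen heart. FFPE heart held 351 and 390 of 15848065 reads for them, and frozen heart 431 and 429 of 20526813. Over the alternatives, left-out libraries and organs included, the call was kept in 12 of 23 for H1f4, 11 of 23 for H1f2 and 4 of 23 for H1f0. For H1f2 it was lost on the plain total, at −0.36. For H1f0 it was kept in 0 of the 12 that leave out a library or an organ, and the value was −0.05 on the plain total. Those 12 are not separate checks here or below. In FFPE against frozen, leaving out either library of an organ, or both, gives the same estimate.

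The remaining H1 genes did not pass the test. H1f3 had 54, 29, 160 and 87 reads in FFPE brain, heart, kidney and liver, against 150, 70, 97 and 116 reads in the frozen libraries, lower in FFPE tissue in 3 organs and higher in kidney (log2 fold change −0.78 ± 0.31 SE, limma adjusted p = 0.197). H1f1 had a fitted value of −0.49 ± 0.43 (limma adjusted p = 0.536), H1f5 one of −0.68 ± 0.47 (limma adjusted p = 0.434) and H1f10 one of −0.38 ± 0.47 (limma adjusted p = 0.681) on the log2 scale. On the plain total, without the scaling factors, the H1f10 value turned to 0.09.

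Of the H4 genes, which encode the same core protein, 4 fell: H4c8, H4c3, H4c4 and H4c17. H4c8, at chr13:23531044-23531478 (+ strand), stood at 4.91, 5.84, 8.38 and 7.10 scaled CPM in FFPE brain, heart, kidney and liver, against 10.8, 17.4, 17.6 and 16.4 scaled CPM in the frozen libraries of the same organs. On the deposited scale the highest FFPE value of H4c8 lay below the lowest frozen value. The difference there exceeded 1 log2 unit in each organ (log2 fold change −1.24 ± 0.16 SE, limma adjusted p = 0.0129). H4c3, at chr13:23698084-23698458 (- strand), stood at 6.31, 4.09, 9.11 and 6.89 scaled CPM in the 4 FFPE libraries, against 9.83, 16.3, 26.7 and 15.2 scaled CPM in the frozen ones, in the same order of organs. The 2 sets do not overlap for H4c3 on that scale either, though brain showed the smallest difference, −0.64 (log2 fold change −1.33 ± 0.23 SE, limma adjusted p = 0.0257). H4c4 had 208, 108, 172 and 212 reads in FFPE brain, heart, kidney and liver, against 420, 158, 248 and 210 reads in the frozen libraries, a change of −0.70 ± 0.15 (limma adjusted p = 0.0472). The calls of H4c8, H4c3 and H4c4 were kept in 11 of 23, 9 of 23 and 3 of 23 alternatives. That of H4c4 was kept in 0 of the 12 that leave out a library or an organ. On the plain total the values of H4c8, H4c3 and H4c4 were −0.77, −0.85 and −0.22. There the FFPE and frozen sets of H4c8 and H4c3 overlap. FFPE kidney held 185 and 201 of 15593121 reads for these 2 genes, and frozen heart 179 and 167 of 20526813.

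H4c17 had the largest fitted decrease, with 5, 7, 4 and 4 reads in FFPE brain, heart, kidney and liver, against 49, 18, 13 and 39 reads in the frozen libraries (log2 fold change −2.48 ± 0.47 SE, limma adjusted p = 0.0343). It passed the filter through 3 frozen libraries only, so its decrease is given as a description. With no filter the adjusted p was 0.0477 (limma), and the call was kept in 6 of 22 alternatives and in 0 of the 12 that leave out a library or an organ. Each 50-base window of its coding sequence is shared with another gene. Of the 8 H4 genes that were not called, H4c1, H4c2, H4c12, H4c9, H4c11, H4c14, H4c6 and H4c18, each had a negative fold change, from −1.52 ± 0.48 (limma adjusted p = 0.122) for H4c1 to −0.12 ± 0.34 (limma adjusted p = 0.869) for H4c18. H4c14, a chromosome 3 gene that shares 6.08% of its coding windows with other genes, the lowest share among H4 genes, had 87, 49, 69 and 44 reads in FFPE brain, heart, kidney and liver, against 123, 96, 113 and 43 reads in the frozen libraries (log2 fold change −0.71 ± 0.27 SE, limma adjusted p = 0.180). In scaled CPM, FFPE and frozen brain were level for H4c14 and the other 3 organs were lower in FFPE tissue.

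Among H2B genes, H2bc4 stood at 4.97, 9.18, 19.5 and 32.0 scaled CPM in FFPE brain, heart, kidney and liver, against 5.47, 14.1, 31.5 and 49.6 scaled CPM in the frozen libraries of the same organs. Brain showed a log2 difference of −0.14 and the other organs −0.69 to −0.62, and the gene missed the threshold at −0.52 ± 0.15 (limma adjusted p = 0.0941). It was called with limma's voom on the recovered reads, at −0.57. H2bc21 did not move one way, with 54, 47, 112 and 46 reads in FFPE brain, heart, kidney and liver, against 75, 68, 58 and 22 reads in the frozen libraries (log2 fold change 0.07 ± 0.31 SE, limma adjusted p = 0.921). H2bc18 was lower in FFPE tissue in each organ, at −0.91 ± 0.31 (limma adjusted p = 0.143). Of the H2A genes, H2ac20 had a fitted value of −0.28 ± 0.27 (limma adjusted p = 0.585), H2ac6 one of −0.74 ± 0.43 (limma adjusted p = 0.361) and H2ac21 one of 0.10 ± 0.49 (limma adjusted p = 0.927), and none was called.

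The H3 gene H3c14, which encodes H3.2, had the highest positive value of the 33, with 28, 12, 114 and 102 reads in FFPE brain, heart, kidney and liver, against 22, 9, 45 and 28 reads in the frozen libraries. In scaled CPM its FFPE level was above the frozen one in all 4 organs, by 0.83, 0.03, 0.96 and 1.37 log2 units in brain, heart, kidney and liver. It missed the threshold (log2 fold change 0.80 ± 0.33 SE, limma adjusted p = 0.211) and passed it on the plain total (1.27). All of its coding windows are shared with other genes. H3c6, by contrast, stood at −0.62 ± 0.31, and H3c4 at 0.76 ± 0.46 (limma adjusted p = 0.295 and 0.373).

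**Figure D2:**
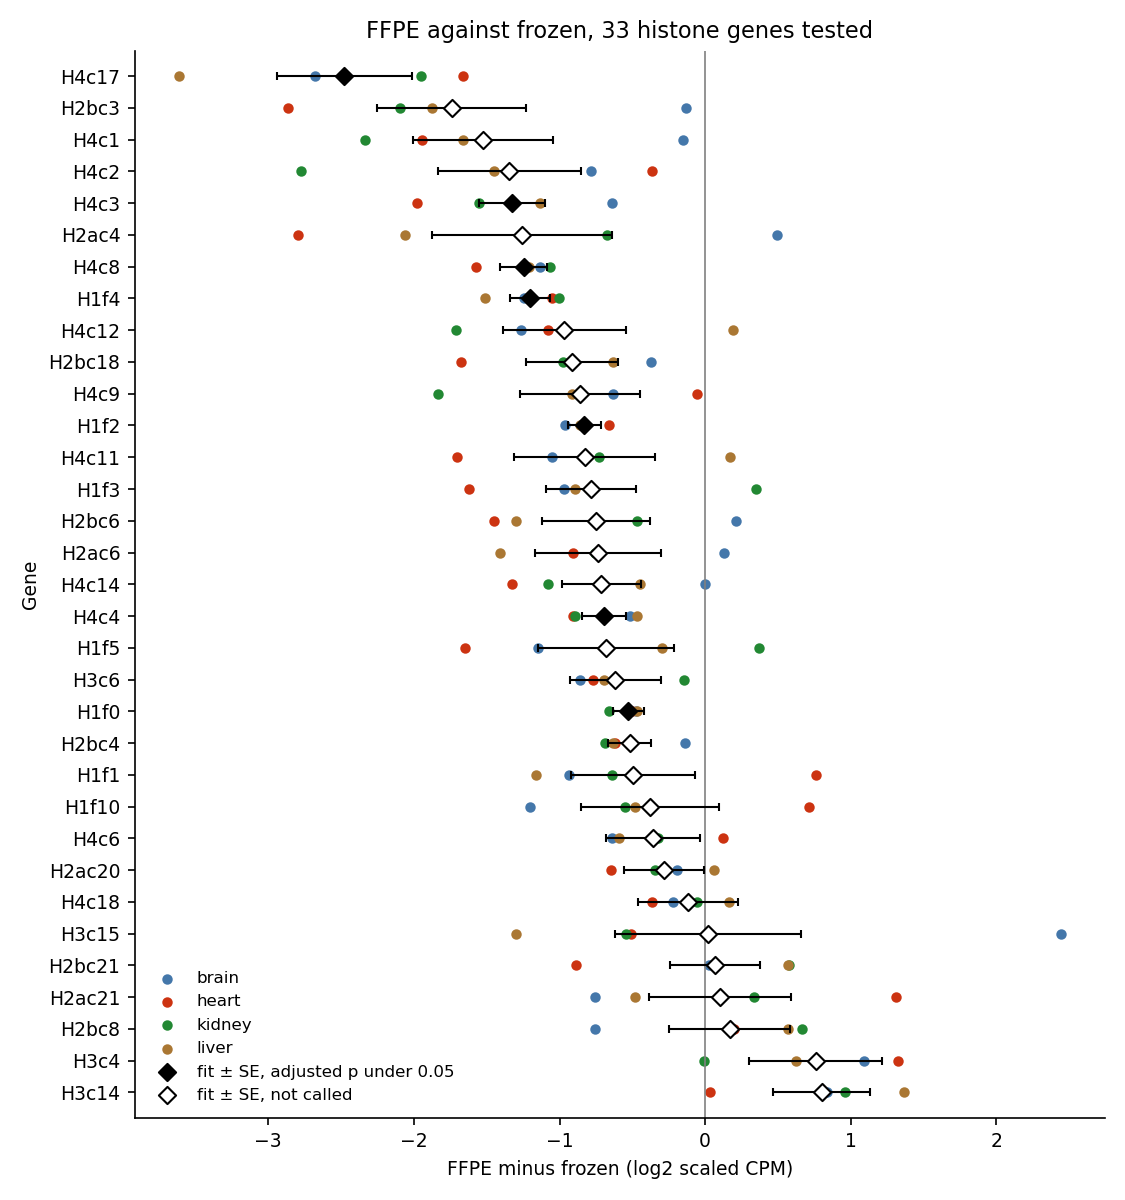
Each row is 1 of the 33 tested histone genes and the x axis is the FFPE minus frozen difference in log2 scaled CPM. Coloured points are the 4 organs, diamonds the limma fit with its SE, filled where the adjusted p was under 0.05. The 7 filled diamonds lie left of 0, from −2.48 for H4c17 to −0.53 for H1f0, and H3c14 and H3c4 lie farthest right at 0.80 and 0.76.

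The count of calls rests on all 8 libraries. Leaving out 1 library gave 0 calls for either brain, either kidney or either liver library, 4 without FFPE heart and 3 without frozen heart, while the median of the tested members stayed between −0.76 and −0.57. With trends of length and GC content removed in each library the median was −0.39 and 2 members, H1f2 and H1f4, were called. Length and GC content were those of each gene's longest GENCODE M21 transcript. By that measure not all members are short: H1f3 has 7425 bases, against a span of 776. On the plain total, where the median of all genes moved by 0.47 to 0.54, the members' median was −0.24, and 4 were called lower and 1 higher. Relative to the median of all genes the members' median was −0.78 on the deposited scale and −0.41 with length and GC trends removed.

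Markers of other cells and of the cell cycle were read beside these values. The 14 leukocyte markers summed to 12.6, 36.6, 22.7 and 32.5 scaled CPM in the FFPE libraries, against 18.4, 94.2, 24.1 and 42.4 scaled CPM in the frozen ones in the order brain, heart, kidney and liver, lower in each FFPE library on this scale. On the plain total they were higher in FFPE kidney, with 32.1 reads per 1e+06 against 21.9 in frozen kidney, and lower in FFPE tissue in the other 3 organs. Of the 5 tested, 1 fell, the myeloid lysozyme Lyz2 (−1.30, limma adjusted p = 0.0310). The 8 erythroid markers in the table summed to 72.6, 1944, 144 and 122 scaled CPM in the FFPE libraries, against 88.2, 2167, 291 and 151 scaled CPM in the frozen ones, and 1 of 7 tested fell. On the plain total their sum was higher in FFPE heart, with 1618 reads per 1e+06 against 1083 in frozen heart. The 30 genes of S phase and mitosis summed to 52.1, 58.2, 68.9 and 67.7 scaled CPM in the FFPE libraries, against 51.5, 88.1, 71.7 and 63.6 scaled CPM in the frozen ones, higher in FFPE tissue in brain and liver, and 0 of 20 tested were called. On the plain total this sum was higher in FFPE tissue in all 4 organs. Their part in the histone difference was not tested. In bulk tissue, fewer cells of a type and less RNA per cell cannot be told apart.

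Genes that act with the histones were read from lists. Of 17 tested genes for histone gene transcription and mRNA 3′-end processing, 0 were called in FFPE against frozen tissue (limma), with a median of 0.03. The values farthest from 0 were those of Hinfp, a transcription factor of H4 genes (0.49 ± 0.25, adjusted p = 0.295), Lsm11 of the U7 particle (0.44 ± 0.25, adjusted p = 0.353), Casp8ap2 (0.40 ± 0.15, adjusted p = 0.177) and the endonuclease Cpsf3 (−0.38 ± 0.12, adjusted p = 0.118). Slbp, the stem-loop binding protein, named for its role after the values were seen, had −0.35 ± 0.26, adjusted p = 0.480. Of 15 histone chaperones 0 were called (median −0.14), with Atrx at 0.39 ± 0.17, adjusted p = 0.228 and Set at −0.38 ± 0.10, adjusted p = 0.0859 farthest from 0. Of 11 replacement variants, which are made outside S phase, 1 fell, the H2A.Z gene H2az1 (−0.78 ± 0.17, adjusted p = 0.0475), with a median of −0.50. H4f16, H2aj and H2bu2 had −1.21, −0.81 and −0.73 and were not called (limma adjusted p = 0.0510, 0.0668 and 0.624).

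The make-up of the H1 family differed between organs. Per kb, H1f2 held 29.8 to 54.1% of the summed H1 level in the 8 libraries, H1f4 17.3 to 31.6%, H1f0 15.9 to 24.5%, H1f3 4.17 to 10.6% and H1f10 0.0471 to 8.795%. The lowest H1f2 shares were those of brain. In FFPE brain H1f2, H1f0 and H1f4 stood at 11.1, 9.11 and 8.50 scaled CPM per kb, and in frozen brain at 21.7, 12.7 and 20.2. In heart H1f2 was clearly ahead, with 36.7 in the FFPE and 57.9 scaled CPM per kb in the frozen library, beside 11.7 and 24.3 for H1f4. These shares do not depend on the library scaling, but they do depend on the length used. The RefSeq spans of H1f2, H1f4 and H1f0 are 725, 782 and 2293 bases. Their longest GENCODE M21 transcripts have 1560, 1930 and 2055 bases, and shares on those lengths were not computed.

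**Figure D3:**
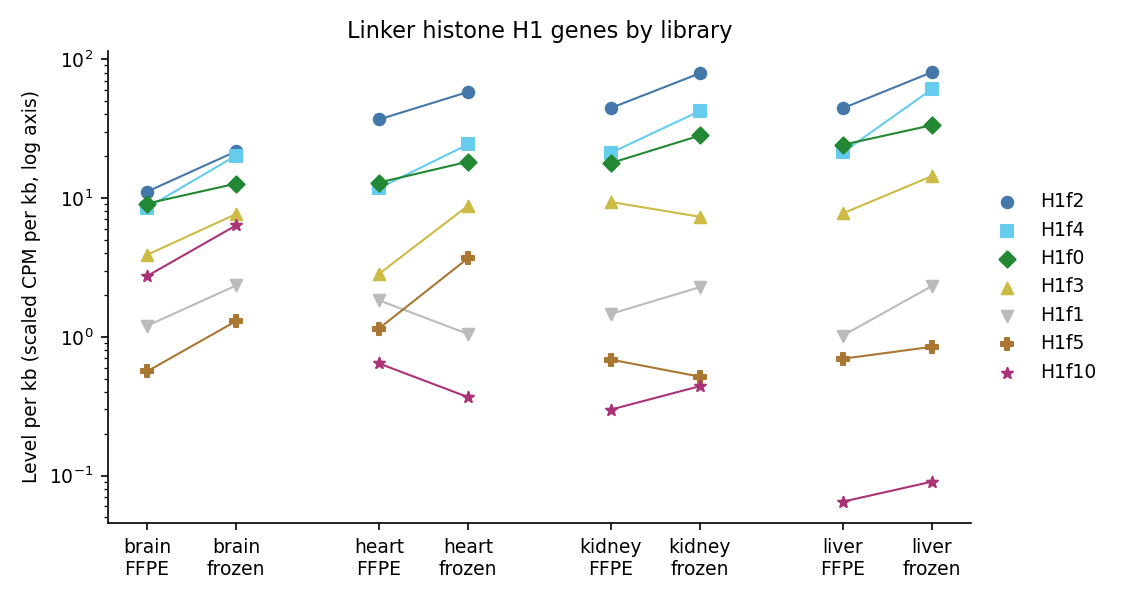
Levels of 7 H1 genes in scaled CPM per kb (y axis, log scale) in each of 8 libraries, FFPE left of frozen, with a line joining the 2 libraries of an organ. Per kb of RefSeq gene span, H1f2 is the highest in all 8 libraries, and H1f10 lies mid-range in brain and at the bottom in liver.

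Each organ was then set against the mean of the other 3, with both preparations used as the samples of an organ. The 4 comparisons share libraries, so they are given side by side and are not independent. In brain, 6 of 33 members were higher and 7 lower, while 34.7% of all genes tested were called higher and 31.6% lower (66.4% in all). In heart the members counted 0 higher and 3 lower, beside 21.5% and 28.7% of all genes (50.2% in all). In kidney they counted 6 higher and 3 lower, beside 20.3% and 19.9% (40.3% in all). In liver they counted 7 higher and 3 lower, beside 27.3% and 35.2% (62.5% in all). The members' shares lie below those of all genes in each organ, and these counts are read as no result about them as a group. For the individual genes below, "kept in" gives the number of alternatives, left-out libraries included, under which the call held. The counts for brain and liver include H1f10, which passed the filter through its 2 brain libraries only. The kidney count includes H3c4, H4c11 and H4c12, and the liver count H2ac21, which passed it through brain and heart libraries only. H3c4 and H4c12 are in the brain count too.

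Brain had low H1f2 and H2bc4 and high H1f10 and H2bc18. H1f2 had 8.04 and 15.7 scaled CPM in FFPE and frozen brain, against 26.6 to 58.3 scaled CPM in the other 6 libraries (log2 fold change −1.81 ± 0.13 SE, limma adjusted p = 6.90e-06, kept in 18 of 18 alternatives). H2bc4 had 4.97 and 5.47 scaled CPM in FFPE and frozen brain, against 9.18 to 49.6 scaled CPM in the other 6 libraries (log2 fold change −2.10 ± 0.17 SE, limma adjusted p = 1.19e-05, kept in 18 of 18). For both genes the brain libraries lie below the other 6 on the deposited scale. On the plain total they overlap with heart. Frozen brain held 396 and 138 of 16807233 reads for H1f2 and H2bc4, and frozen heart 431 and 145 of 20526813. H1f10, a linker histone that is not tied to replication, had 52, 9, 7 and 1 reads in FFPE brain, heart, kidney and liver, against 170, 4, 8 and 1 reads in the frozen libraries. The reads of liver are at or under the floor. The brain libraries lie above the rest. Since the gene entered the tests through brain alone, this is a description. Fitted with no filter on low values, the log2 fold change was 3.87 (limma adjusted p = 0.000585), and it was 0.63 and not called with length and GC trends removed. H2bc18, a chromosome 3 H2B gene at chr3:96269700-96270192 (+ strand), had 5.47 and 7.10 scaled CPM in FFPE and frozen brain, against 1.14 to 3.70 scaled CPM in the other 6 libraries (log2 fold change 1.74 ± 0.36 SE, limma adjusted p = 0.00268, kept in 17 of 18).

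The other brain calls depended more on the settings. H1f0 (log2 fold change −0.99 ± 0.12 SE, limma adjusted p = 0.000115) and H1f4 (log2 fold change −1.0024 ± 0.16 SE, limma adjusted p = 0.000609) were lower, each kept in 16 of 18 and lost on the plain total and with length and GC trends removed. H3c14 (−1.06, kept in 10 of 18), H2ac20 (−0.83, kept in 8 of 18) and H4c8 (−0.59, kept in 13 of 18) were lower on the log2 scale, and the last 2 had a positive value on the plain total (0.11 and 0.34). With length and GC trends removed, H4c8 was called higher (0.63, limma adjusted p = 0.0158). H3c4 (1.53, kept in 8 of 17), H4c1 (1.42, kept in 5 of 17), H4c6 (1.39, kept in 15 of 17) and H4c12 (1.31, kept in 7 of 17) were higher, and each lost its call under quantile normalization. Since H3c4 and H4c12 passed the filter through brain and heart libraries only, their brain values are descriptions. With no filter the adjusted p in brain was 0.0886 for H3c4, 0.0663 for H4c12 and 0.0955 for H4c1 (limma). The split of brain calls followed the scaling: 6 higher and 7 lower as deposited, 2 and 15 with quantile normalization, 3 and 8 with median centring, 11 and 2 on the plain total, and 16 and 3 with length and GC trends removed. The median of all genes tested in the brain comparison was 0.05 as deposited and 0.98 on the plain total.

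On the deposited scale, liver was the organ with the highest H2bc4 and H1f0. H2bc4 had 32.0 and 49.6 scaled CPM in FFPE and frozen liver, against 4.97 to 31.5 scaled CPM in the other 6 libraries (log2 fold change 1.81 ± 0.17 SE, limma adjusted p = 3.09e-05). H1f0 had 55.3 and 76.6 scaled CPM in FFPE and frozen liver, against 20.9 to 64.5 scaled CPM in the other 6 libraries (log2 fold change 0.88 ± 0.12 SE, limma adjusted p = 0.000295). Both calls, which set liver against the mean of the other 3 organs, were kept in 18 of 18 alternatives. On the plain total H1f0 stood higher in kidney than in liver in both preparations. FFPE kidney held 901 of 15593121 reads and FFPE liver 802 of 15619829. Frozen kidney held 1103 of 18729510 reads and frozen liver 798 of 13716870. In scaled CPM, H2bc4 was lowest in brain, then heart, kidney and liver in each preparation. Frozen kidney (31.5 scaled CPM) and FFPE liver (32.0 scaled CPM) were nearly level. On the plain total heart stood below brain in each preparation. FFPE heart held 121 of 15848065 reads for H2bc4, and FFPE brain 89 of 10180972. H1f4 (0.93) and H1f2 (0.77) were higher on the log2 scale too, each kept in 16 of 18 and lost on the plain total and with length and GC trends removed. H3c14 was higher at 1.45 ± 0.38 (limma adjusted p = 0.0101), H4c4 at 0.53 ± 0.17 (limma adjusted p = 0.0257) and H4c18 at 1.03 ± 0.40 (limma adjusted p = 0.0478). These calls were kept in 16 of 18, 10 of 18 and 5 of 17 alternatives, that of H4c18 in 0 of the 8 that leave out a library. With length and GC trends removed, H4c4 turned to −0.70 and was called lower (limma adjusted p = 0.00201). H2ac21 (−1.53, kept in 6 of 17) and H2bc18 (−1.0002, kept in 9 of 18) were lower, as was H1f10, with 1 read in each liver library. H2ac21 passed the filter through frozen brain and FFPE heart only, so its liver value is a description. With no filter its adjusted p in liver was 0.0992 (limma). The liver split was 7 higher and 3 lower as deposited, 10 and 1 with quantile normalization, 8 and 1 with median centring, 3 and 6 on the plain total, and 3 and 10 with length and GC trends removed.

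Kidney was higher for H1f2 (log2 fold change 0.76 ± 0.13 SE, limma adjusted p = 0.00205, kept in 18 of 18 alternatives) and H2bc4 (log2 fold change 0.89 ± 0.17 SE, limma adjusted p = 0.00337, kept in 17 of 18). H4c3 had 9.11 and 26.7 scaled CPM in FFPE and frozen kidney, against 4.09 to 16.3 scaled CPM in the other 6 libraries (log2 fold change 0.84 ± 0.26 SE, limma adjusted p = 0.0321, kept in 13 of 18). Here the FFPE kidney value falls inside the range of the other organs and the frozen one lies above it. H1f4 (0.58, kept in 13 of 18), H1f0 (0.42, kept in 12 of 18) and H3c14 (1.13, kept in 7 of 18) were higher, and H3c4 (−1.75, kept in 8 of 17), H4c11 (−1.70, kept in 8 of 17) and H4c12 (−1.50, kept in 6 of 17) lower, the last 3 on 3 to 16 reads per kidney library and with no call on the plain total. H3c4 passed the filter through FFPE brain and FFPE heart, H4c11 through frozen brain and frozen heart, and H4c12 through the brain and heart libraries. Their kidney values are therefore descriptions. With no filter the adjusted p in kidney was 0.0857 for H3c4, 0.108 for H4c11 and 0.0629 for H4c12 (limma). The kidney split was 6 higher and 3 lower as deposited, 6 and 5 with quantile normalization and 6 and 0 on the plain total.

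Heart was lower for H3c14, with 0.910 and 0.877 scaled CPM in FFPE and frozen heart, against 0.872 to 7.03 scaled CPM in the other 6 libraries (log2 fold change −1.52 ± 0.38 SE, limma adjusted p = 0.0106, kept in 17 of 18). Frozen brain lies at the heart level for this gene. H2bc4 (log2 fold change −0.60 ± 0.17 SE, limma adjusted p = 0.0179) and H1f4 (log2 fold change −0.51 ± 0.16 SE, limma adjusted p = 0.0278) were lower too, each kept in 11 of 18 and lost with quantile normalization and with median centring. The heart split was 0 higher and 3 lower as deposited, 2 and 1 with quantile normalization or median centring, 0 and 15 on the plain total, and 1 and 10 with length and GC trends removed. On the plain total the median of all genes tested was −1.03 in heart. The erythroid markers summed to 1944 and 2167 scaled CPM in FFPE and frozen heart, against 72.6 to 291 scaled CPM in the other 6 libraries, and the part of blood in the heart values was not tested.

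**Figure D4:**
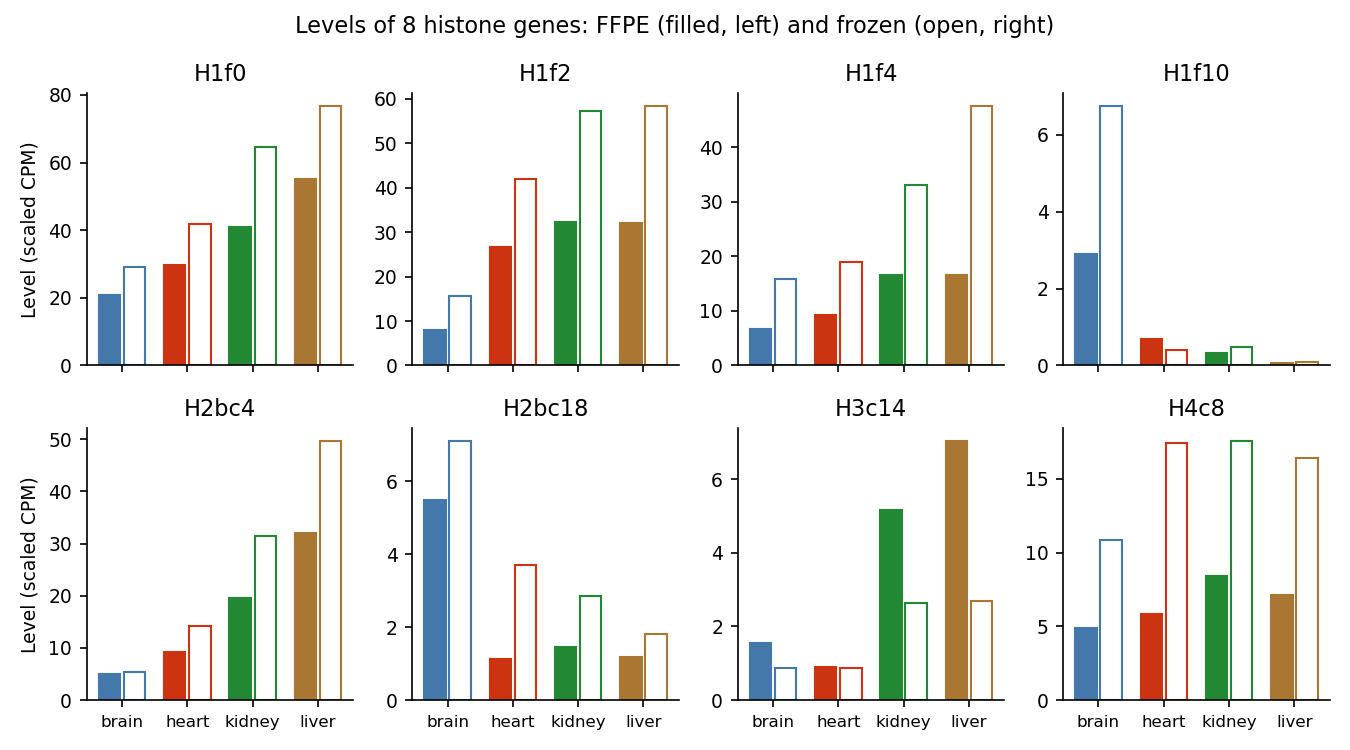
Levels of 8 histone genes in scaled CPM (y axes from 0), with the FFPE library (filled bar) left of the frozen one (open bar) in each organ. H2bc4 stands between 4.97 scaled CPM in FFPE brain and 49.6 in frozen liver, H1f10 is above 1 scaled CPM in brain only, and H3c14 is the gene whose filled bars exceed the open ones in each organ.

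Genes of S phase and mitosis give the background of dividing cells. Of 20 tested, 2 were higher and 8 lower in brain (median −0.67), 3 and 0 in heart (0.28), 2 and 0 in kidney (0.48), and 1 and 3 in liver (−0.04). In brain the DNA polymerase clamp gene Pcna had −0.32 ± 0.20, adjusted p = 0.190, thymidine kinase Tk1 had −5.06 ± 0.71, adjusted p = 0.000264, Mki67 had −1.82 ± 0.37, adjusted p = 0.00230 and cyclin E1, Ccne1, had 3.77 ± 0.57, adjusted p = 0.000404 (limma). Among replacement variants, brain had 3 higher and 4 lower of 11 and liver 2 and 2. Of the transcription and processing list, brain had 3 higher, Cstf2, Lsm11 and Npat, the S phase coactivator of histone genes (1.28 ± 0.19, adjusted p = 0.000400, limma), and 1 lower, Mif4gd. These were named after their values were seen, and liver had 5 higher and 2 lower of 17. Their part in the histone levels was not tested.

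H2A and H2B genes often stand head to head with a shared promoter, and 12 such pairs (starts 164 to 281 bases apart) were found among the members. Read totals over the 8 libraries were higher for the H2B gene in 8 pairs, higher for the H2A gene in 3, and 0 for both in 1. Some of these orders rest on very few reads: H2bc1 and H2ac1 had 2 against 1, H2bc23 and H2ac23 5 against 1, and H2ac22 and H2bc22 5 against 0. H2bc11 and H2ac11 were nearly level, at 33 against 29. The widest gap with at least 10 reads on each side was that of H2bc4 and H2ac6, with 2444 reads against 104, a ratio of 23.5 with the same order in all 8 libraries. H2bc8 and H2ac8 had 126 reads against 36, H2bc21 and H2ac20 had 482 against 351, and H2ac15 and H2bc15 had 66 against 46. These are read totals and not levels per length. H2bc4 and H2bc21 have transcript models that run 742 and 2192 bases past the stop codon. No stem-loop was found for them within the 200 bases searched, and H2ac6 and H2ac20 have one. The order within a pair was the same in 4 to 8 libraries for the 8 pairs with at least 10 reads on each side.

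**Figure D5:**
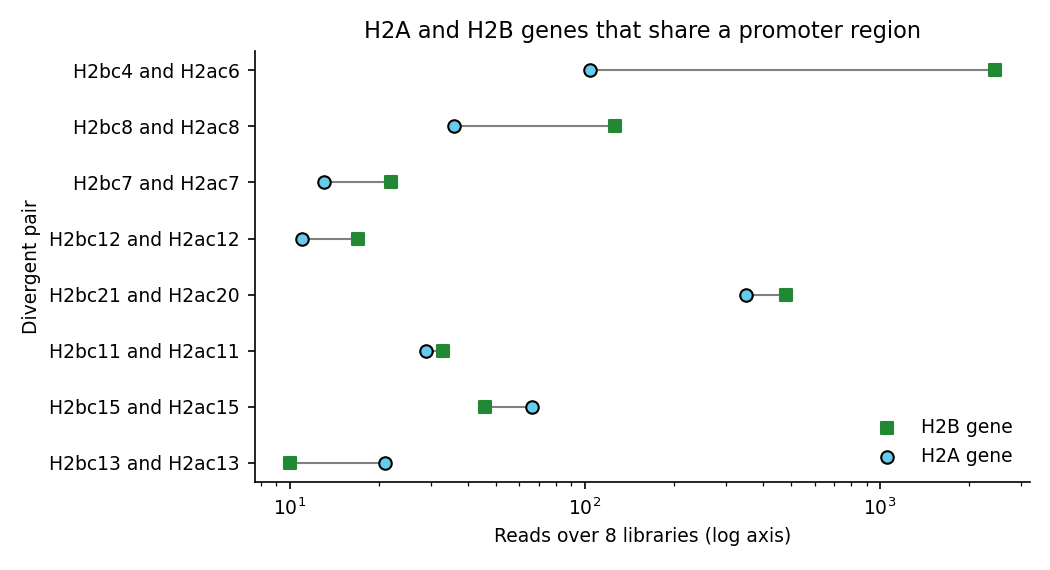
Reads over 8 libraries (x axis, log scale) of the H2B gene (green squares) and the H2A gene (blue circles) of 8 divergent pairs with at least 10 reads on each side. The pair H2bc4 and H2ac6 spans 104 to 2444 reads, and the other 7 pairs lie closer together.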

How the data were processed

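Total RNA was sequenced in 8 mouse libraries, 1 FFPE and 1 frozen for each of 4 organs. HISAT2, featureCounts, limma and genome mm10 are named in the submitters' processing notes, without versions or roles. For the annotation, the strand setting, reads that map to several genes and the scaling method, the sources used here give nothing. A single table of log2 values was deposited by the authors. The values show themselves to be log2 counts per 1e+06 reads, with 0.5 added to each count, on a scaled library size. Whole reads were recovered for 100% of values (within 1e-06), and totals were 10180972 to 20526813 reads per library. Unit and depth follow from the deposited table, which contains no read counts as such.

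Groups follow the labels for tissue and treatment. A linear model of organ and preservation was fitted to the deposited log2 values of 15819 genes (above 0 in at least 2 of 8 libraries) by limma 3.58.1 (R 4.3.3), using its mean-variance trend. Residual degrees of freedom were 3, and the prior added 5.35. Tests were two-sided, p-values were Benjamini-Hochberg adjusted over all genes tested, and genes were called under 0.05. The 5 comparisons came from this fit. Differences within 1 organ have 1 library a side and no test. Same-organ libraries were paired by the organ label, which does not show that they came from 1 animal. Levels per kb use the RefSeq gene span (GRCm38.p6) of members up to 3000 bases. Exact 95% intervals are Clopper-Pearson, with scipy 1.17.1. The model was tested on simulated data. The members, gene lists and rule for named genes were chosen with earlier results of these data known. The rule named H1 genes with reads, the 3 highest members of each other class, members called in a comparison (up to 12) and up to 4 genes of each other list. Of 27179 genes, 1275 had no symbol.

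Alternatives were no filter, a stricter filter (mean log2 CPM above 1), quantile normalization, median centring, the plain total, log2(CPM + 5), no mean-variance trend, robust variance, voom, removal of length and GC trends (within the genes with a reference length), no term for organ, and leaving out libraries or organs.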

Additional observations from a re-analysis of the deposited data

Results flagged for a closer look

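On the deposited scale, the H2B gene H2bc21 moved in opposite directions in 2 organs. In kidney the FFPE minus frozen difference was 0.57 on the log2 scale, with 112 reads in the FFPE library against 58 in the frozen one (counting interval 0.11 to 1.06). In heart it was −0.89, with 47 reads in the FFPE library against 68 in the frozen one (counting interval −1.46 to −0.34). The size of both depends on the scaling factors, 0.832 and 0.4998 in FFPE and frozen heart and 1.42 and 0.912 in FFPE and frozen kidney. Heart totals were 15848065 reads in the FFPE and 20526813 in the frozen library. On the plain total the heart difference is smaller and the kidney one larger, and no interval was computed there. Each difference rests on 1 library a side, and the difference between the organs was not tested.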

How the results depend on the processing

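The count of members called in FFPE against frozen tissue (7) was 4 with log2(CPM + 5), 2 with length and GC trends removed, and 0 without a mean-variance trend or without a term for organ. It ranged from 0 to 4 with libraries or organs left out. With the organ term, which pairs the libraries (replicate block), 7 were called, and without it 0, while the median was −0.71 in both. The median moved to −0.48 without a filter, to −0.24 on the plain total, to −0.17 with log2(CPM + 5) and to −0.39 with length and GC trends removed, and ranged from −0.757 to −0.566 with libraries left out. Brain calls (13) were 8 with the stricter filter and 7 to 12 with a library left out. Heart calls (3) were 15 on the plain total, 5 with log2(CPM + 5), 11 with length and GC trends removed, and 1 to 3 with a library left out. Kidney calls (9) were 1 to 7 and liver calls (10) 5 to 11 with a library left out.

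Of 1049 alternative values of 54 named results, 749 kept direction and side of the threshold, 281 lost the call, 2 gained one and 17 reversed. For FFPE against frozen, leaving out either library of an organ, or both, repeats the same estimate, so these totals count it more than once. Reversed in FFPE against frozen were H1f10 (0.0929) and H2ac20 (0.19) on the plain total, H2ac20 with length and GC trends removed (0.10), H2bc21 without a kidney or liver library (−0.10 to 0.39 over the libraries left out), and H2ac21 with quantile normalization (−0.33) or without a heart library (−0.30 to 0.39). Reversed in brain were H2ac20 (0.11) and H4c8 (0.34) on the plain total and H4c8 with length and GC trends removed (0.63), and in liver H4c4 with these removed (−0.70). With these trends removed, H4c8 in brain and H4c4 in liver were called in the opposite direction. The causes were not tested. Single members with under 100 reads over 8 libraries are limited by depth, and a lone library of an organ is assumed to vary like the others.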
